A study of Mus musculus with 24 samples.

Results

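Fatty acid uptake and oxidation genes were followed as a group of 33 listed genes, from the enzyme that frees fatty acids from blood lipids to the last step of beta-oxidation. Members were chosen by name. Every probe set annotated to exactly 1 listed symbol was taken, a probe set being a group of array probes that together read 1 transcript. This gave 52 of the 45037 probe sets tested and covered 31 of the 33 genes, among 18193 genes with probe sets of their own on the array. Acsl1, which activates fatty acids, and Cpt1b, the muscle form of the outer carnitine transferase, had no such probe set, and 4 probe sets shared between a member and another gene were left out. Of the 31 genes, 16 had more than 1 probe set and 15 had 1.

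Hearts of 90-day-old mice were measured on Affymetrix arrays, 6 hearts for each of 4 genotypes and 24 in all. ARG mice carried a human beta1-Arg389 adrenergic receptor cDNA, and GLY mice carried the human beta1-Gly389 receptor cDNA. AC5 mice carried a human AC5 (type 5 adenylyl cyclase) cDNA, and NTG mice carried no transgene. In all 3 transgenic lines the alpha-myosin heavy chain promoter drove the transgene in cardiac myocytes, and the labels do not say how many founder lines stand behind a genotype. The study asked how the 2 forms of the receptor differ in cardiac gene regulation, with AC5 and NTG hearts beside them.

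The deposited values are ratios that centre near 1 in NTG hearts. They give changes of a transcript but no level, so genes cannot be ranked by abundance and the identity of the tissue cannot be checked from its markers. Over all arrays the ratios ran between 0.0636 and 34.8, and the median log2 ratio of an array lay between -0.05 and 0.09. The number of arrays limits the precision: the median standard error (SE) of a log2 difference was 0.0992. The labels do not state a batch, but replicates 1 to 3 and 4 to 6 formed separate sets in earlier results of these data, so values within each set stand beside the main ones. GLY replicates 1 and 3 stood apart from the other 4 GLY hearts. Both lay below those 4 at 14 of the 52 probe sets, among them all 3 of Cd36 and both of Lpl, and above them at others. Many, but not all, results that rest on these hearts are given with and without them. In these fits both are left out together with ARG replicate 1, the third array that had a low weight in earlier results. Each heart was also left out alone. Hearts are mixtures of cells, and in such samples fewer cells of a type and less RNA per cell cannot be told apart.

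Long-chain fatty acids are the main fuel of the adult heart. They are freed from lipoproteins by lipoprotein lipase, enter the cell with the help of CD36, are bound by FABP3 and linked to coenzyme A, and cross into mitochondria as carnitine esters. Inside, each turn of beta-oxidation takes a dehydrogenation, a hydration, a second dehydrogenation and a thiolytic cut, and electrons from the first step leave through the electron transfer flavoprotein. Hypertrophied and failing hearts are known for lowered transcripts of this pathway.

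Most of the oxidation enzymes were lower in both receptor lines than in NTG hearts, with the lower values in ARG hearts. Calls were made with limma, fitted over all 45037 probe sets of the 24 arrays, at a Benjamini-Hochberg adjusted p under 0.05, and "fell" and "rose" are used of called changes. In ARG against NTG hearts 30 of 52 member probe sets fell and 1 rose, where 5.63 percent of all probe sets fell and 4.04 percent rose. These 30 stand for 22 of the 31 genes. In GLY against NTG hearts 19 fell and 1 rose, beside 3.53 and 1.55 percent of all probe sets, and 14 genes had a probe set that fell. In AC5 against NTG hearts 2 fell and 0 rose at that threshold, beside 0.0733 and 0.0688 percent, while 25 had an unadjusted p under 0.05. The share of all probe sets under this unadjusted threshold was not computed, here or for the later counts of this kind. The 3 comparisons share their 6 NTG hearts.

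The median log2 change of the 52 probe sets was -0.49 in ARG, -0.27 in GLY and -0.20 in AC5 hearts against NTG hearts. Over all probe sets tested, the medians of the same differences were 0.00, 0.03 and -0.00. Every ARG heart lay below every NTG heart at 28 member probe sets, where 3.79 percent of all probe sets were separated in this direction. The same held at 16 for GLY hearts (1.61 percent of all) and at 12 for AC5 hearts (0.733 percent of all). The mean of the ARG hearts was the lowest of the 4 genotypes at 39 probe sets, that of GLY at 7, of AC5 at 4 and of NTG at 2. At 26 of the 52 the means stood in the order ARG, GLY, AC5 and NTG, low to high. The shares of all probe sets with these orders of means were not computed, so these order counts have no baseline. Most neighbours had no call. Over all 52, and not only these 26, 7 probe sets were called between ARG and GLY hearts, all lower in ARG. The 1 call between GLY and AC5 hearts, Pdk4, was higher in GLY hearts, against that order.

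**Figure D1:**
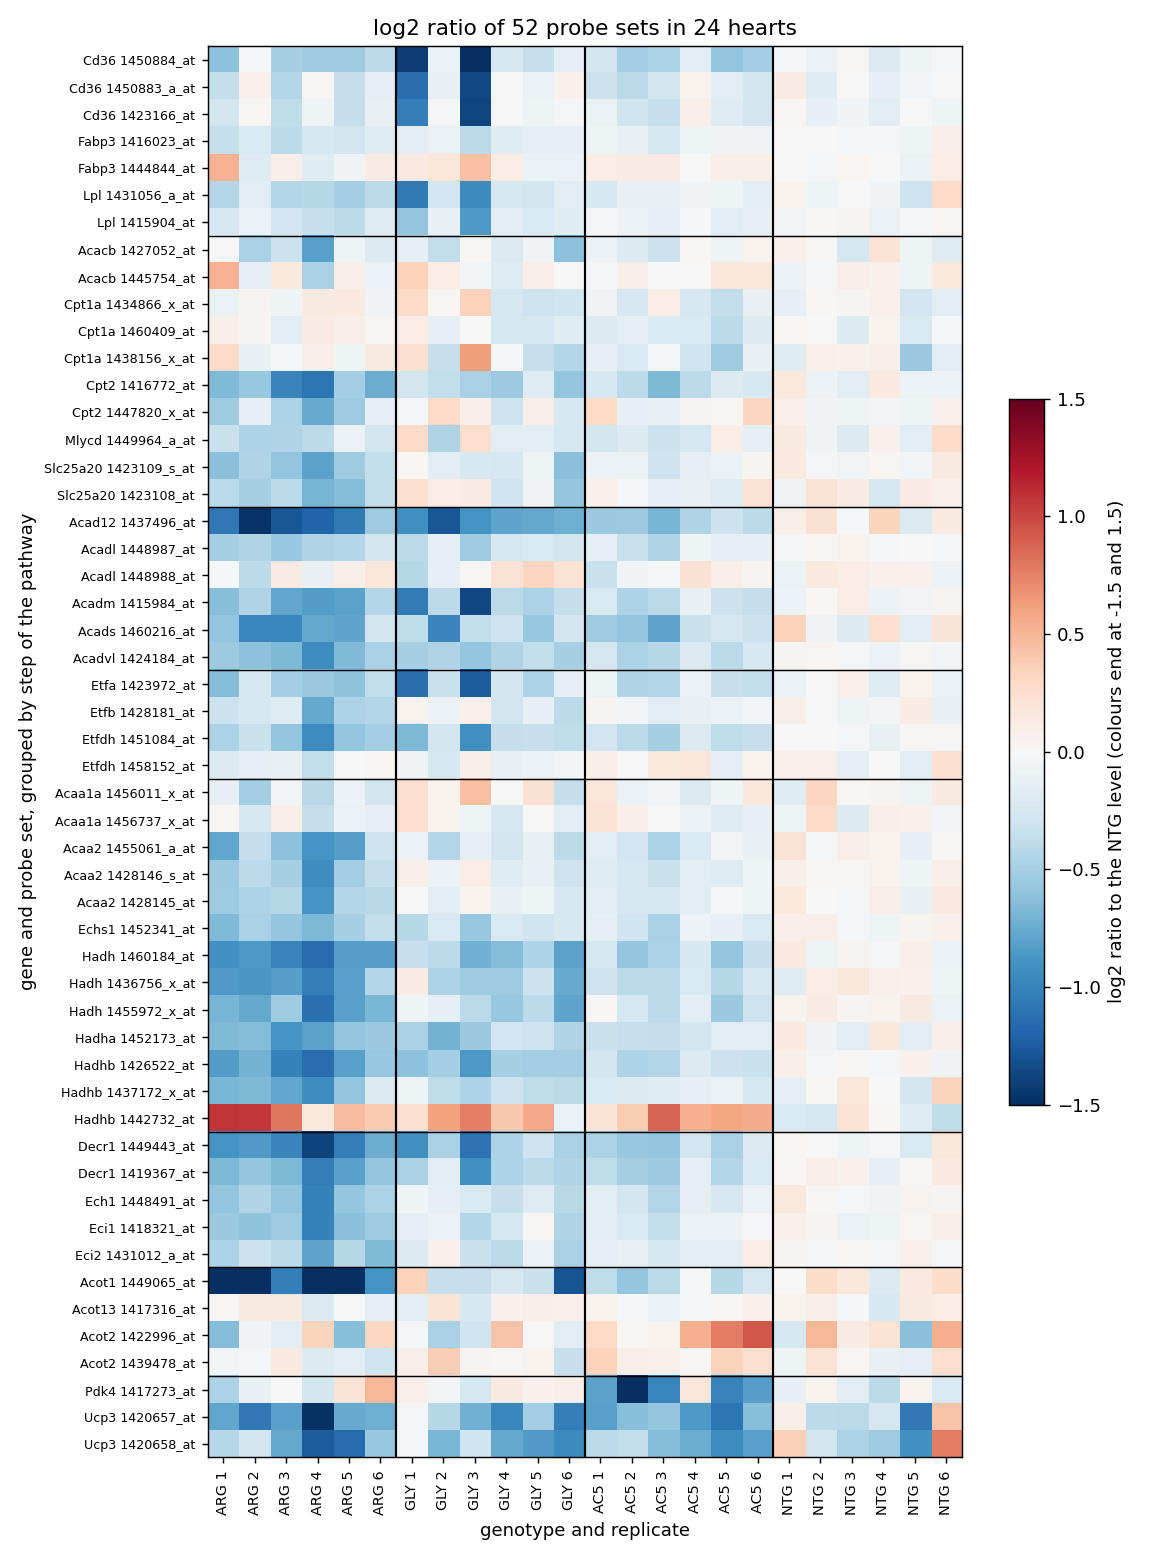
Log2 ratio of the 52 member probe sets (rows, grouped by step of the pathway) in each of the 24 hearts (columns, by genotype and replicate), with colours ending at -1.5 and 1.5. ARG hearts are blue over most rows from Cpt2 to Acot1, GLY replicates 1 and 3 are dark at Cd36, Lpl, Acadm and Etfa, and 1 Hadhb row is red in the transgenic lines.

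Uptake genes showed few calls. Of 7 probe sets for Cd36, Lpl and Fabp3, 1 fell in ARG, 2 fell in GLY and 0 changed in AC5 hearts, with median changes of -0.25, -0.36 and -0.11. With the 3 arrays of low weight left out, 4 fell in ARG and 0 in GLY hearts, and the medians were -0.25 and -0.14, so that the order of the 2 lines turned. Lpl, which codes for lipoprotein lipase, had ratios of 0.701, 0.743 and 0.893 in ARG hearts (lowest, median and highest, the order kept below) and 0.48, 0.824 and 0.888 in GLY hearts, against 0.808, 0.983 and 1.22 in NTG hearts. The values of GLY replicates 1 and 3 were 0.48 and 0.516, those of the other 4 GLY hearts between 0.822 and 0.888, and the groups overlapped. This Lpl probe set fell in GLY hearts (log2 change -0.49 ± 0.13 SE, adjusted p = 0.0221), and a second one did too (-0.35 ± 0.10, adjusted p = 0.0327). Without the 3 arrays of low weight the changes in GLY hearts were -0.23 and -0.16 and neither was called (adjusted p = 0.178 and 0.232). In ARG hearts the Lpl changes of -0.38 and -0.25 missed the threshold with all arrays (adjusted p = 0.0542 and 0.11), and both were called without the 3 arrays (-0.37 and -0.25, adjusted p = 0.00286 and 0.00768).

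Cd36, the membrane protein that takes up long-chain fatty acids, was read by 3 probe sets. The one with the largest changes had ratios of 0.652, 0.699 and 0.983 in ARG, 0.268, 0.813 and 0.937 in GLY and 0.666, 0.714 and 0.897 in AC5 hearts, against 0.863, 0.963 and 1.01 in NTG hearts. GLY replicates 1 and 3 had 0.374 and 0.268 and stood alone at the bottom, while the other 4 GLY hearts lay between 0.785 and 0.937. No Cd36 probe set was called in ARG, GLY or AC5 against NTG hearts, with changes of -0.13 to -0.36 in ARG and -0.36 to -0.62 in GLY hearts. Without the 3 arrays the changes in GLY hearts were -0.14 to 0.03, and the same probe set was then called in ARG hearts (-0.33 ± 0.09, adjusted p = 0.0179).

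Fabp3 codes for the fatty acid binding protein of heart muscle. One of its probe sets had ratios of 0.763, 0.831 and 0.879 in ARG, 0.754, 0.896 and 0.933 in GLY and 0.841, 0.95 and 0.963 in AC5 hearts, against 0.954, 0.992 and 1.07 in NTG hearts. ARG and GLY hearts were all below the NTG hearts. The fall was small and was called in ARG hearts (-0.28 ± 0.06, 17.6% lower, adjusted p = 0.00364). In GLY hearts the change was -0.19 (adjusted p = 0.0807), and the other Fabp3 probe set differed by 0.05 in ARG hearts (adjusted p = 0.875).

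**Figure D2:**
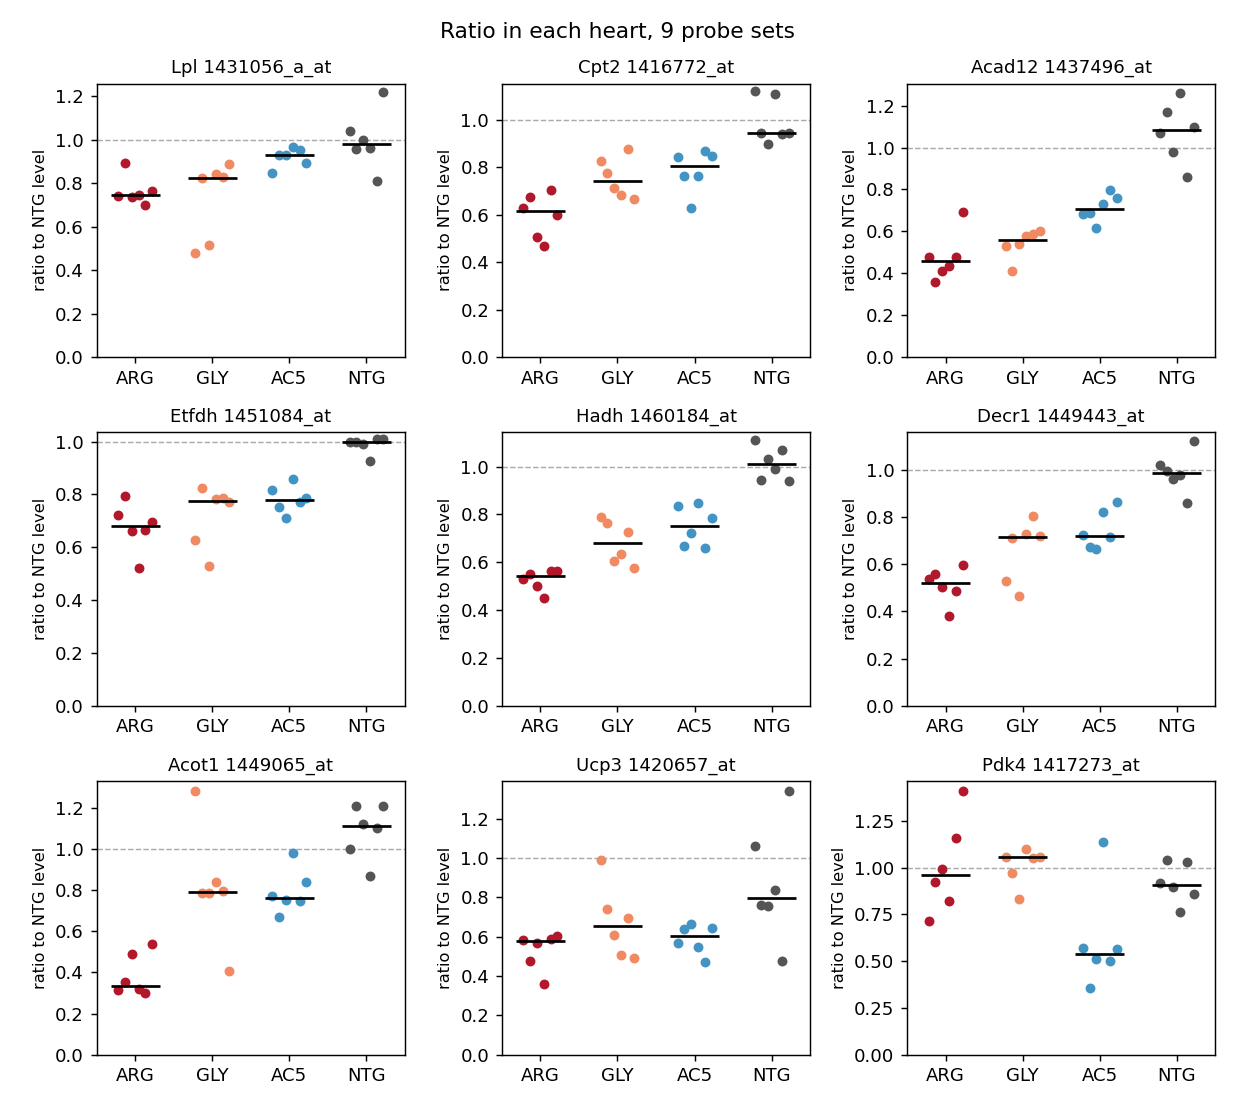
Ratio to the NTG level in each heart (points, with the line at the group median) for 1 probe set each of Lpl, Cpt2, Acad12, Etfdh, Hadh, Decr1, Acot1, Ucp3 and Pdk4, in ARG, GLY, AC5 and NTG hearts. Hadh separates ARG from GLY hearts completely, Acot1 separates ARG from NTG hearts, and Pdk4 is low in 5 of 6 AC5 hearts.

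In the carnitine shuttle the calls against NTG hearts were at Cpt2 and Slc25a20. Cpt2, the inner-membrane transferase that returns the acyl group to coenzyme A, had ratios of 0.47, 0.614 and 0.702 in ARG, 0.665, 0.744 and 0.875 in GLY and 0.627, 0.804 and 0.868 in AC5 hearts, against 0.898, 0.943 and 1.12 in NTG hearts. Each of the 3 transgenic groups lay wholly below the NTG hearts. Cpt2 fell in ARG hearts (-0.74 ± 0.10, 40.2% lower, adjusted p = 1.32e-05) and in GLY hearts (-0.39 ± 0.10, adjusted p = 0.0221). A second Cpt2 probe set fell in ARG hearts as well (-0.42 ± 0.11, adjusted p = 0.0119), with a change of -0.01 in GLY hearts. The call in GLY hearts was lost when GLY replicate 3, NTG replicate 1 or NTG replicate 4 was left out, and over all single omissions the change lay between -0.44 and -0.36. It was also lost without the 3 arrays of low weight (-0.41, adjusted p = 0.0534), after quantile normalization (-0.35, adjusted p = 0.159) and within each replicate set (-0.35 and -0.44, adjusted p = 0.16 and 0.295).

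Slc25a20, the carrier that exchanges acylcarnitine for carnitine across the inner membrane, fell in ARG hearts at both probe sets (-0.60 ± 0.09 and -0.54 ± 0.11, adjusted p = 5.30e-05 and 0.00168). The ratios of the first were 0.575, 0.677 and 0.771 in ARG and 0.648, 0.872 and 1.02 in GLY hearts, against 0.97, 1 and 1.11 in NTG hearts. ARG and NTG hearts were separate, and GLY hearts reached from one group into the other. Its changes in GLY hearts, -0.25 and -0.12, were not called, and ARG lay below GLY by -0.34 and -0.43 (adjusted p = 0.0516 and 0.0507). At the second probe set GLY replicates 1 and 3 (1.18 and 1.09) lay above the other 4 GLY hearts (0.67 to 1.08).

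At the outer membrane no change was called against NTG hearts. Cpt1a, the liver form of the outer transferase and the only form read here, changed by 0.09 to 0.16 in ARG hearts at its 3 probe sets. The 95% interval of the best measured of them was -0.05 to 0.26 in ARG hearts and -0.22 to 0.09 in GLY hearts. Malonyl-CoA, which blocks the outer transferase, is made by the product of Acacb and removed by that of Mlycd. Acacb changed by -0.28 and -0.02 in ARG hearts (adjusted p = 0.171 and 0.969), and Mlycd by -0.35 (adjusted p = 0.0532). Of the 10 shuttle probe sets 4 fell in ARG, 1 in GLY and 0 in AC5 hearts.

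Acyl-CoA dehydrogenases, which open each turn of the cycle, fell at 5 of 6 probe sets in both receptor lines, and 1 fell in AC5 hearts. The median changes were -0.65 in ARG, -0.51 in GLY and -0.32 in AC5 hearts. After quantile normalization 5 of the 6 fell in ARG, 3 in GLY and 4 in AC5 hearts. Acad12, a member of the dehydrogenase family, had ratios of 0.36, 0.456 and 0.69 in ARG, 0.412, 0.558 and 0.603 in GLY and 0.618, 0.708 and 0.798 in AC5 hearts, against 0.86, 1.09 and 1.26 in NTG hearts. All 18 transgenic hearts were below the lowest NTG heart. Acad12 fell in ARG hearts (-1.20 ± 0.12, 56.4% lower, adjusted p = 1.84e-07), in GLY hearts (-0.99 ± 0.12, 49.6% lower, adjusted p = 2.52e-05) and in AC5 hearts (-0.59 ± 0.12, 33.4% lower, adjusted p = 0.0427). The difference between ARG and GLY hearts, -0.21 ± 0.12, was not called (adjusted p = 0.476). Within replicates 1 to 3 the changes in ARG and GLY hearts were -1.38 and -1.13, and within replicates 4 to 6 they were -1.02 and -0.85. The last of these, in GLY hearts, was not called (adjusted p = 0.0504).

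Acadm and Acadvl, the medium-chain and very-long-chain dehydrogenases, are textbook targets of the fatty acid receptor PPAR-alpha and of estrogen-related receptors, which bind the half-site AGGTCA. Their promoters are shown because both genes fell together and both hold that half-site. The 250 bases before the gene start follow, from RefSeq on GRCm38.p6, 5′ to 3′ along the gene's strand, with the half-site in capitals on whichever strand it lies.
Acadm, chr3:153944644-153944893, minus strand: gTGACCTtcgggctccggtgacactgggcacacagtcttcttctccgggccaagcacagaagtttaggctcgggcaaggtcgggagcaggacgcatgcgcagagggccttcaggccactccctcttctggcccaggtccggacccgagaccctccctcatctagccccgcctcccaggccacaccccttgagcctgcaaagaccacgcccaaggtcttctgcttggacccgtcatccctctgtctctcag
Acadvl, chr11:70015429-70015678, minus strand: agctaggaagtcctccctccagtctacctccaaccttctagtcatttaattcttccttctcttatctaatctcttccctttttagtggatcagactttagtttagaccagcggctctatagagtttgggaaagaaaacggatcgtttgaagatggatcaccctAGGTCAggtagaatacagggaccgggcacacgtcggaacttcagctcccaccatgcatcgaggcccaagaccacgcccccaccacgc
The half-site lies 249 to 244 bases before the start of Acadm, on the opposite strand, and 87 to 82 bases before that of Acadvl. The search for AGGTCA covered both strands of each promoter's whole stored sequence, of which the 250 bases shown are only the first part. The half-site was found in 7 of 27 member promoters (25.9%) and in 16.3% of all 32851 promoters. This describes the letters and not binding, and the shares are not those of 250-base stretches. The 7 were those of Acadm, Acadvl, Cd36, Acacb, Ucp3, Echs1 and Cpt1a, and they include genes without a called fall in ARG hearts. The longer motif TCAAGGTCA, which contains the half-site, was found in 0 of the 27, beside 0.423% of all promoters.

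Acadvl had ratios of 0.521, 0.641 and 0.711 in ARG, 0.671, 0.721 and 0.772 in GLY and 0.72, 0.798 and 0.863 in AC5 hearts, against 0.941, 0.998 and 1.03 in NTG hearts. No transgenic heart reached the NTG range. It fell in ARG hearts (-0.65 ± 0.07, 36.1% lower, adjusted p = 5.95e-07) and in GLY hearts (-0.46 ± 0.07, adjusted p = 3.47e-04), and in AC5 hearts the change of -0.33 ± 0.07 just missed the threshold (adjusted p = 0.0579). Acadm had ratios of 0.56, 0.613 and 0.739 in ARG and 0.389, 0.738 and 0.783 in GLY hearts, against 0.94, 0.991 and 1.08 in NTG hearts. Both receptor lines were separate from the NTG hearts, and GLY replicates 1 and 3 had the lowest GLY values, 0.485 and 0.389. Its fall was of like size in ARG and GLY hearts (-0.65 ± 0.13 and -0.66 ± 0.13, adjusted p = 0.0013 and 0.00331) with all arrays. Without the 3 arrays of low weight it was -0.65 in ARG hearts and -0.40 in GLY hearts (adjusted p = 4.95e-06 and 0.0123).

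Acads, the short-chain dehydrogenase, fell in ARG hearts (-0.79 ± 0.13, 42.4% lower, adjusted p = 1.38e-04) and in GLY hearts (-0.55 ± 0.13, adjusted p = 0.0135). The call in GLY hearts was lost after quantile normalization (-0.49, adjusted p = 0.105) and within replicates 1 to 3 and 4 to 6 (-0.61 and -0.49, adjusted p = 0.0628 and 0.233). Its ratios were 0.505, 0.584 and 0.826 in ARG and 0.504, 0.772 and 0.823 in GLY hearts, against 0.867, 1.06 and 1.27 in NTG hearts, and neither receptor line overlapped with NTG. Acadl, the long-chain dehydrogenase, fell at 1 probe set by 26.8% in ARG hearts and 19.5% in GLY hearts (adjusted p = 1.43e-04 and 0.0131). At this probe set the GLY call was lost after quantile normalization (-0.26, adjusted p = 0.08). It was also lost within each replicate set (-0.38 and -0.25, adjusted p = 0.0742 and 0.333). GLY replicates 1 and 3 (0.752 and 0.692) lay below the other 4 GLY hearts (0.824 to 0.903). The other Acadl probe set changed by -0.06 and 0.00, with 95% intervals of -0.29 to 0.18 in ARG and -0.23 to 0.24 in GLY hearts.

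Electrons from the dehydrogenases pass to the flavoprotein subunits Etfa and Etfb and from there to the quinone reductase Etfdh. Of 4 probe sets, 3 fell in ARG, 2 in GLY and 0 in AC5 hearts. Etfdh had ratios of 0.52, 0.681 and 0.793 in ARG and 0.529, 0.777 and 0.824 in GLY hearts, against 0.927, 1 and 1.01 in NTG hearts. All hearts of both receptor lines were below the NTG hearts, and the falls were 32.2% and 28% (adjusted p = 2.70e-04 and 0.00452). GLY replicates 1 and 3 (0.629 and 0.529) lay below the other 4 GLY hearts (0.77 to 0.824). The Etfdh change in GLY hearts was -0.62 within replicates 1 to 3 (adjusted p = 0.024). Within replicates 4 to 6 it was -0.33 and was not called (adjusted p = 0.299). Etfb fell in ARG hearts (-0.40 ± 0.09, adjusted p = 0.00288) and changed by -0.12 in GLY hearts (adjusted p = 0.504). For Etfb, GLY replicates 1 and 3 (1.03 and 1.06) lay above the other 4 GLY hearts (0.761 to 0.942). Etfa fell in ARG hearts (-0.45 ± 0.14, adjusted p = 0.0436) and in GLY hearts (-0.56 ± 0.14, adjusted p = 0.0204). GLY replicates 1 and 3 had Etfa ratios of 0.458 and 0.421, and without the 3 arrays the change in GLY hearts was -0.26 (adjusted p = 0.142). The call was also lost when either of these GLY hearts or NTG replicate 3 was left out alone.

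Steps after the dehydrogenation held the largest set, 13 probe sets for 6 genes. In ARG hearts 10 fell and 1 rose (median -0.67), in GLY hearts 7 fell and 1 rose (-0.36), and in AC5 hearts 1 fell (-0.26). Hadha and Hadhb code for the 2 subunits of the mitochondrial trifunctional protein, which does all 3 of these steps on long chains. The genes lie head to head on chromosome 5, with 272 bases between the end of Hadha at 30154980 and the start of Hadhb at 30155253 (GRCm38.p6). The 250 bases before Hadhb are shown because they fill most of the stretch the pair shares, and they hold no AGGTCA on either strand, so no letter is in capitals.
Hadhb, chr5:30155003-30155252, plus strand: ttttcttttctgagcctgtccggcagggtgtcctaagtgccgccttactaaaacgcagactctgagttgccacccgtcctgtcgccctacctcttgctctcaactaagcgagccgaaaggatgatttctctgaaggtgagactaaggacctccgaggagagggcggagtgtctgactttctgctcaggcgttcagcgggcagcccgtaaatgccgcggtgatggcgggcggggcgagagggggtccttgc

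Hadha had ratios of 0.541, 0.634 and 0.677 in ARG and 0.613, 0.725 and 0.82 in GLY hearts, against 0.894, 1.02 and 1.12 in NTG hearts. Hadhb, at the probe set with the largest fall, had 0.454, 0.564 and 0.673 in ARG and 0.551, 0.696 and 0.711 in GLY hearts, against 0.965, 1 and 1.06 in NTG hearts. For both genes every heart of both receptor lines was below every NTG heart. Hadha fell by 38.5% in ARG and 28% in GLY hearts (adjusted p = 1.49e-06 and 0.00114). Hadhb fell by 44.9% and 34% (adjusted p = 1.07e-07 and 1.07e-04), and a second Hadhb probe set fell by 37% and 21.9% (adjusted p = 5.47e-05 and 0.0386). For that second probe set the call in GLY hearts was lost without the 3 arrays of low weight (-0.39, adjusted p = 0.0583) and when any 1 of 8 hearts was left out. Another Hadhb probe set went the other way.

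That probe set had ratios of 1.12, 1.56 and 2.11 in ARG, 0.932, 1.41 and 1.69 in GLY and 1.15, 1.46 and 1.83 in AC5 hearts, against 0.768, 0.864 and 1.15 in NTG hearts. It was the single member probe set that rose, by 0.80 ± 0.15 in ARG hearts (adjusted p = 7.46e-04) and 0.55 ± 0.15 in GLY hearts (adjusted p = 0.0326). In AC5 hearts the change was 0.66 ± 0.15 (adjusted p = 0.0778). The groups overlapped in each comparison, and the call in GLY hearts was lost when any 1 of 7 hearts was left out and without the 3 arrays of low weight (0.51, adjusted p = 0.0839). Fitted by replicate set, the change in ARG hearts was 1.07 in the first set and 0.52 in the second, where it was not called (adjusted p = 0.0653). Whether this probe set reads above background cannot be judged from ratios. The position of the probes in the gene is not given in the files, and the reason for the opposite directions was not tested.

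Hadh, the dehydrogenase of the third step for medium and short chains, fell at all 3 probe sets in both receptor lines. The first had ratios of 0.45, 0.542 and 0.564 in ARG, 0.575, 0.68 and 0.789 in GLY and 0.662, 0.753 and 0.848 in AC5 hearts, against 0.942, 1.01 and 1.11 in NTG hearts. ARG hearts were separate from GLY hearts, and all 3 lines from NTG hearts. Hadh fell in ARG hearts (-0.95 ± 0.09, 48.1% lower, adjusted p = 5.71e-08), in GLY hearts (-0.58 ± 0.09, 33.1% lower, adjusted p = 3.01e-04) and in AC5 hearts (-0.43 ± 0.09, 26% lower, adjusted p = 0.0347). Within replicates 1 to 3 the ARG and GLY changes were -0.96 and -0.52, and within replicates 4 to 6 they were -0.93 and -0.64. The last of these, in GLY hearts, was not called (adjusted p = 0.0618). Echs1, the hydratase of short chains, fell in ARG and GLY hearts by 33.4% and 22.9% (adjusted p = 8.22e-06 and 0.00446).

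The mitochondrial thiolase Acaa2 fell in ARG hearts at its 3 probe sets, by 0.57 to 0.67 on the log2 scale (adjusted p = 2.06e-05 to 3.90e-05). The first had ratios of 0.542, 0.733 and 0.752 in ARG, 0.84, 0.944 and 1.03 in GLY and 0.83, 0.893 and 0.99 in AC5 hearts, against 0.927, 1.04 and 1.12 in NTG hearts. ARG hearts were below all others, while GLY and AC5 hearts overlapped with NTG hearts. In GLY hearts the 3 changes were -0.12 to -0.28 and none was called. At the first probe set GLY replicates 1 and 3 (1 and 1.03) lay above the other 4 GLY hearts (0.84 to 0.959). Acaa1a, the peroxisomal thiolase, had no called change at 2 probe sets (-0.29 and -0.14 in ARG hearts, adjusted p = 0.124 and 0.487).

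Auxiliary enzymes, which prepare unsaturated fatty acids for the cycle, fell at all 5 probe sets in ARG hearts (median -0.65), at 2 in GLY hearts (-0.26) and at 0 in AC5 hearts (-0.26). Decr1, the mitochondrial dienoyl-CoA reductase, had ratios of 0.382, 0.52 and 0.596 in ARG and 0.464, 0.714 and 0.805 in GLY hearts, against 0.857, 0.986 and 1.12 in NTG hearts. Neither receptor line overlapped with NTG hearts. It fell by 48.7% in ARG hearts and 34.3% in GLY hearts (adjusted p = 2.94e-06 and 0.00293), and its second probe set by 41.2% and 30% (adjusted p = 9.00e-06 and 0.00328). Without the 3 arrays of low weight the GLY changes were -0.41 and -0.40, both still called. Within replicates 4 to 6 the GLY changes were -0.39 and -0.44, and neither was called (adjusted p = 0.369 and 0.199). The isomerases Ech1, Eci1 and Eci2 fell in ARG hearts by 36.3%, 36.4% and 30.4%. Their changes in GLY hearts, -0.26, -0.24 and -0.25, were not called (adjusted p = 0.0735, 0.128 and 0.0997).

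Thioesterases, which split acyl-CoA into free fatty acid and coenzyme A, did not move as a group. Acot1, the cytosolic form, showed the largest fall of all member probe sets in ARG against NTG hearts, and is a known target of PPAR-alpha. The 250 bases before its start are printed from RefSeq for that reason, and hold no AGGTCA on either strand.
Acot1, chr12:84009252-84009501, plus strand: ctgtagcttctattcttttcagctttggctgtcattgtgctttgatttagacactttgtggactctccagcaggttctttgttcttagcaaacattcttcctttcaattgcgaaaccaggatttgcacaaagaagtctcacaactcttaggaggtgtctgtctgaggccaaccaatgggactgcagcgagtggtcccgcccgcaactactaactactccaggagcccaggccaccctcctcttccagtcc
Acot1 had ratios of 0.301, 0.336 and 0.536 in ARG, 0.407, 0.791 and 1.28 in GLY and 0.671, 0.762 and 0.978 in AC5 hearts, against 0.867, 1.11 and 1.21 in NTG hearts. All ARG hearts were below all AC5 and NTG hearts, and GLY replicate 6, at 0.407, was the single GLY heart within the ARG range. The fall in ARG hearts was 65.2% (-1.52 ± 0.18, adjusted p = 1.48e-06). It was -1.55 in the fit of replicates 1 to 3 and -1.49 in that of replicates 4 to 6. In GLY and AC5 hearts the changes of -0.48 ± 0.18 and -0.45 ± 0.18 were not called (adjusted p = 0.125 and 0.514). Without the 3 arrays of low weight the change in GLY hearts was -0.66 and was called (adjusted p = 0.0386).

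Acot2, the mitochondrial form, is encoded 15624 bases from Acot1 on chromosome 12, with the 2 genes separated by that stretch. Its ratios at the first probe set were 0.637, 0.931 and 1.26 in ARG, 0.717, 0.937 and 1.34 in GLY and 1.02, 1.34 and 1.9 in AC5 hearts, against 0.647, 1.12 and 1.45 in NTG hearts, and all 4 groups overlapped. The change in ARG hearts was -0.22 ± 0.20 (95% interval -0.64 to 0.19). Acot13 changed by -0.03 ± 0.08 in ARG hearts, with a 95% interval of -0.20 to 0.14. A probe set that reads both Acot1 and Acot2 was among those left out.

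Ucp3, a mitochondrial carrier that follows fatty acid supply in muscle, fell in ARG hearts at 1 of 2 probe sets (-0.67 ± 0.19, 37.2% lower, adjusted p = 0.0195). Its ratios were 0.358, 0.576 and 0.603 in ARG, 0.493, 0.651 and 0.988 in GLY and 0.471, 0.604 and 0.666 in AC5 hearts, against 0.475, 0.799 and 1.34 in NTG hearts. NTG hearts were spread widely and overlapped with every line. The call was lost when NTG replicate 1, NTG replicate 6 or ARG replicate 4 was left out, with changes of -0.83 to -0.53 over all omissions. It was also lost within each replicate set (-0.65 and -0.69, adjusted p = 0.0633 and 0.22) and after quantile normalization, where the change was -0.27 (adjusted p = 0.728). The second Ucp3 probe set changed by -0.56 ± 0.22 (adjusted p = 0.121).

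Pdk4, the kinase that turns off pyruvate dehydrogenase when fatty acids are burned, had its lowest values in AC5 hearts. Its ratios were 0.717, 0.959 and 1.41 in ARG, 0.833, 1.05 and 1.1 in GLY and 0.356, 0.536 and 1.14 in AC5 hearts, against 0.762, 0.909 and 1.04 in NTG hearts. Among the AC5 hearts, replicate 4 was high at 1.14, and the groups overlapped. Pdk4 was higher in ARG than in AC5 hearts by 0.79 ± 0.18 (adjusted p = 0.00714) and higher in GLY than in AC5 hearts by 0.83 ± 0.18 (adjusted p = 0.0224). The difference between ARG and AC5 hearts lost its call within replicates 4 to 6 (0.69, adjusted p = 0.195) and kept it when any single heart was left out. That between GLY and AC5 hearts lost its call within replicates 4 to 6 (0.64, adjusted p = 0.627), with only these 2 genotypes fitted, with a weight per genotype, and without AC5 replicate 2, 3 or 5 or GLY replicate 4. Against NTG hearts the change was 0.10 in ARG, 0.14 in GLY and -0.69 ± 0.18 in AC5 hearts, and none was called (adjusted p = 0.842, 0.741 and 0.148). Fitted by replicate set, the AC5 change was -1.02 in the first set and -0.36 in the second.

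**Figure D3:**
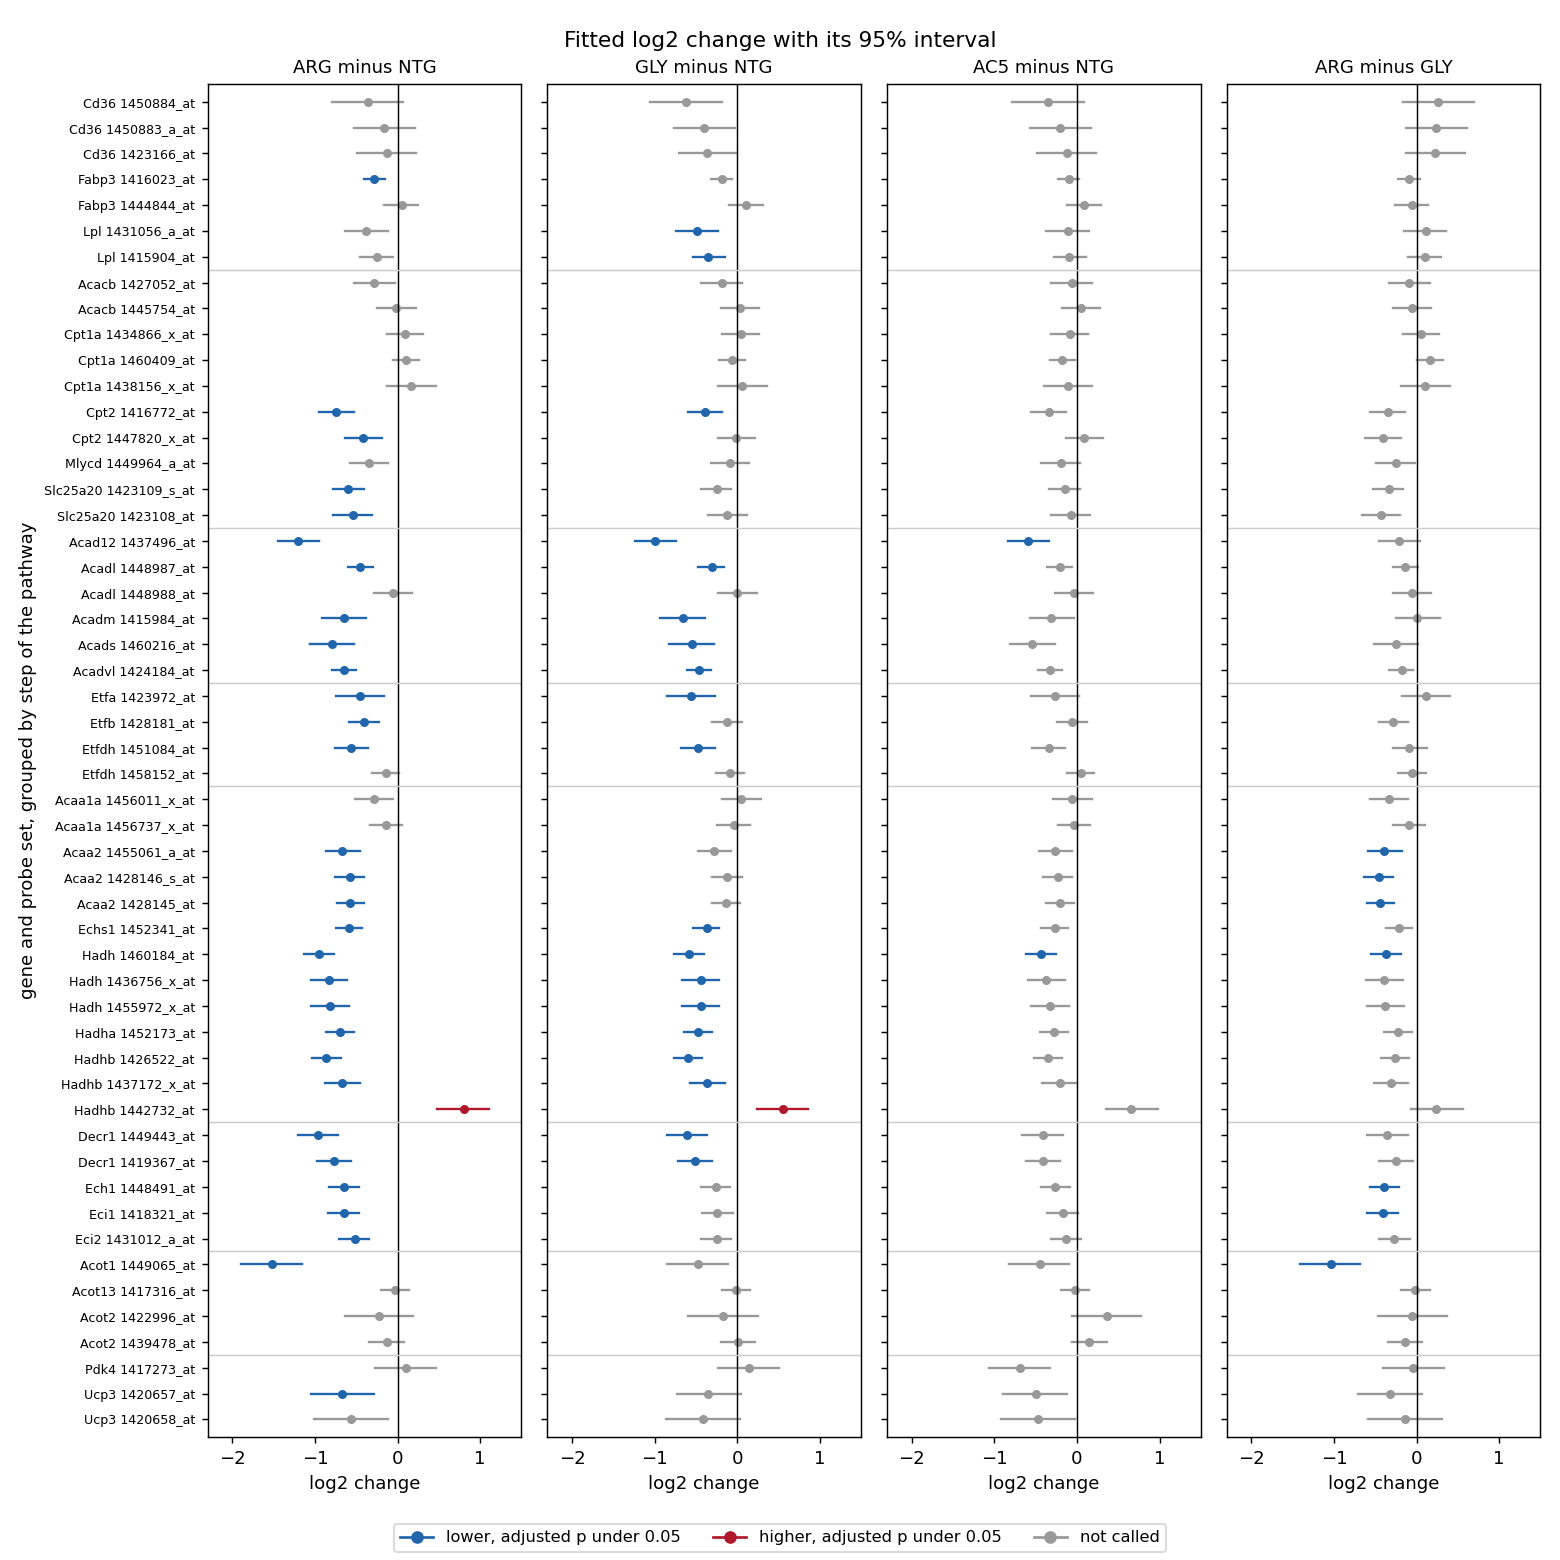
Fitted log2 change (points) with its 95% interval (lines) for the 52 member probe sets in ARG, GLY and AC5 against NTG hearts and in ARG against GLY hearts, grouped by step. Blue points fell and red points rose at an adjusted p under 0.05: 30 blue and 1 red in ARG against NTG, 19 and 1 in GLY against NTG, 2 and 0 in AC5 against NTG, and 7 and 0 in ARG against GLY.

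The 2 receptor forms were then set against each other. In ARG against GLY hearts 7 of 52 member probe sets fell and 0 rose, beside 0.713 and 0.793 percent of all probe sets, and the median change was -0.19 (-0.02 over all probe sets). The 7 read 5 genes: Acot1 (-1.04 ± 0.18, 51.5% lower, adjusted p = 0.00206), Acaa2 at 3 probe sets (-0.39 to -0.46, adjusted p = 0.00386 to 0.0428), Eci1 (-0.41 ± 0.09, adjusted p = 0.0161), Ech1 (-0.39 ± 0.09, adjusted p = 0.0165) and Hadh (-0.37 ± 0.09, adjusted p = 0.0285). At 5 of the 52 every ARG heart was below every GLY heart, as at 0.531 percent of all probe sets. For Acot1 the difference was -1.29 within replicates 1 to 3 (adjusted p = 0.014) and -0.80 within replicates 4 to 6 (adjusted p = 0.274). Uptake genes and dehydrogenases had 0 calls by limma here, with 0 and 1 at an unadjusted p under 0.05 and with median changes of 0.11 and -0.16. For the uptake genes that sign depended on the hearts that stand apart, and without the 3 arrays the median was -0.14.

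These calls rest on a spread shared by 4 genotypes. The mean SD between hearts was 0.192 in ARG and 0.221 in GLY, above the 0.155 of AC5 and 0.143 of NTG, so the shared SE is too small for this pair on average. Fitted on ARG and GLY hearts alone, 0 of the 52 were called, and 0 were called after quantile normalization, with median changes of -0.19 and -0.15. Leaving out single hearts gave 4 to 16 calls: 4 without GLY replicate 1 or 5, 16 without GLY replicate 6, and 11 without ARG replicate 6. Within replicates 1 to 3 there were 3 calls and within replicates 4 to 6 there were 0, with medians of -0.15 and -0.22. Without the 3 arrays of low weight 5 fell, 4 of them among the 7, with a median of -0.22.

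Split by replicate set, the contrasts with NTG hearts kept the sign of their medians. In ARG against NTG hearts 22 member probe sets fell within replicates 1 to 3 and 27 within replicates 4 to 6 (medians -0.43 and -0.54). In GLY against NTG hearts 12 and 0 fell (medians -0.23 and -0.25), with 3 hearts a genotype in each fit. The share of all probe sets called is not given for these or the other alternative fits. A shift of a member count there cannot be told from a general change in the number of calls. Without the 3 arrays of low weight 34 fell in ARG and 14 in GLY hearts against NTG hearts. The 2 calls in AC5 against NTG hearts, Acad12 and Hadh, became 11 when only these 2 genotypes were fitted and 12 when each genotype had its own weight, at medians within -0.22 to -0.17 when single hearts were left out. Each of the 2 calls was lost on leaving out most single hearts, 10 of 12 in both cases.

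Against AC5 hearts, 23 member probe sets fell and 2 rose in ARG hearts (2.41 and 2.52 percent of all probe sets), with a median of -0.28. The falls covered 15 of the 31 genes, among them Acot1 (-1.07 ± 0.18, adjusted p = 3.83e-04), Acad12 (-0.61 ± 0.12, adjusted p = 0.00226), Hadh (-0.51 ± 0.09, adjusted p = 4.93e-04) and Hadhb (-0.51 ± 0.08, adjusted p = 3.20e-04). The rises were Pdk4 and 1 Cpt1a probe set (0.28 ± 0.08, adjusted p = 0.0291). The Cpt1a call was lost after quantile normalization, within each replicate set and on leaving out AC5 replicate 4 or 5 or ARG replicate 2, 4 or 5. After quantile normalization 4 fell, and within replicates 1 to 3 and 4 to 6 there were 2 and 12. In GLY against AC5 hearts 0 fell and 1, Pdk4, rose (0.437 and 0.255 percent of all probe sets), with a median of -0.10 and 9 at an unadjusted p under 0.05, and 39 of the 52 changes were negative.

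Seen heart by heart, the median log2 ratio over the 52 probe sets was -0.76, -0.50 and -0.36 in ARG, -0.35, -0.23 and -0.09 in GLY and -0.33, -0.17 and -0.12 in AC5 hearts, against -0.06, 0.01 and 0.05 in NTG hearts. Every ARG heart was below all GLY, AC5 and NTG hearts, GLY and AC5 hearts overlapped, and all transgenic hearts were below the NTG hearts. These ranges describe the members and carry no test. ARG replicate 4 was the lowest ARG heart at 30 of the 52 probe sets and ARG replicate 6 the highest at 24. Among AC5 hearts replicate 3 was the lowest at 22, and among GLY hearts replicates 6 and 3 were the lowest at 21 and 17.

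**Figure D4:**
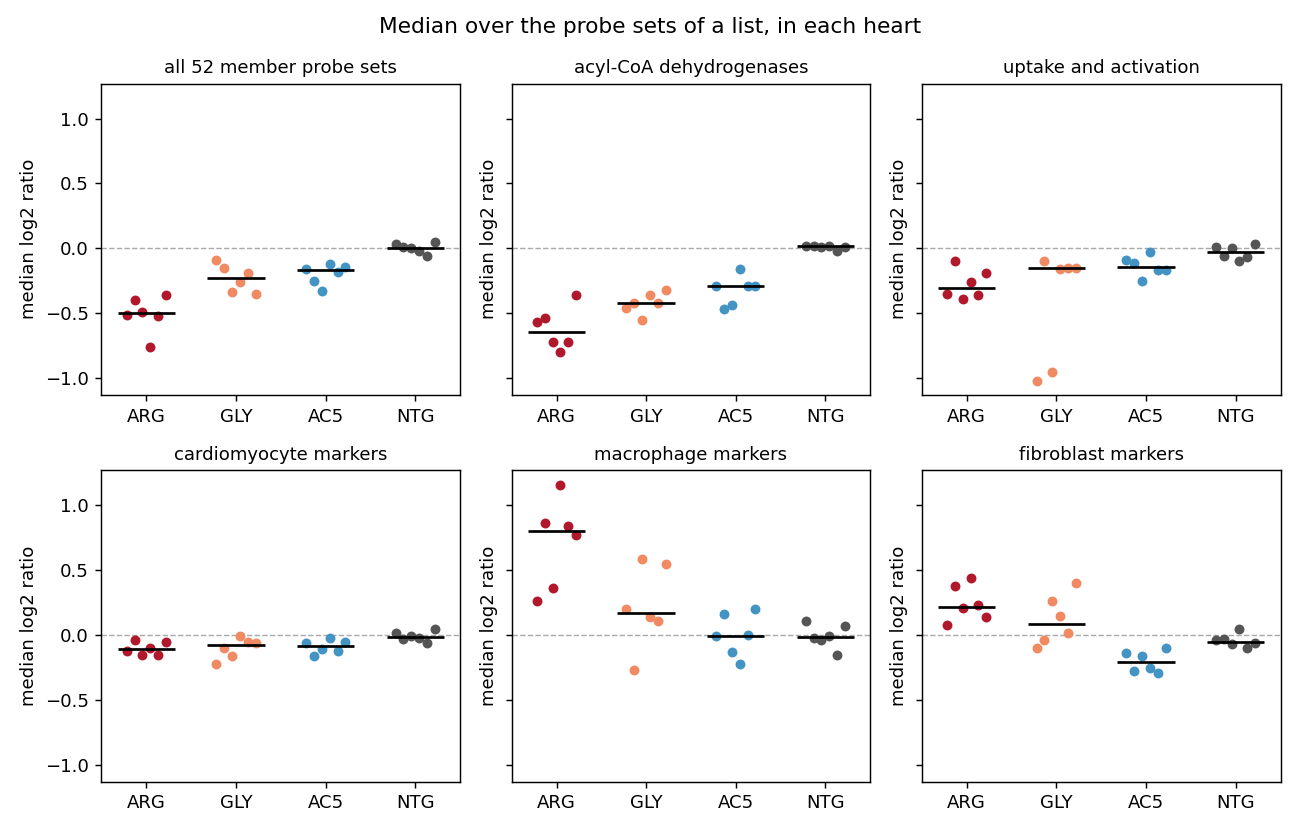
Median log2 ratio over a list in each heart (points, with the line at the group median) for the 52 member probe sets, the acyl-CoA dehydrogenases, the uptake genes, and markers of cardiomyocytes, macrophages and fibroblasts. ARG hearts lie at -0.76 to -0.36 for the members and at -0.15 to -0.04 for cardiomyocyte markers, and 2 GLY hearts lie far below the rest for the uptake genes.

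Genes of the pathway outside the members came from a list of 44, of which 41 had probe sets of their own, 88 in all. Of these 88, 34 fell and 1 rose in ARG, 19 fell in GLY and 1 fell in AC5 hearts against NTG hearts. The falls are shares of 38.6, 21.6 and 1.14 percent, beside 5.63, 3.53 and 0.0733 percent of all probe sets. In ARG hearts 4.04 percent of all probe sets rose. Acat1, the mitochondrial acetoacetyl-CoA thiolase, fell in all 3 lines, by -1.23 ± 0.11 in ARG, -1.07 ± 0.11 in GLY and -0.56 ± 0.11 in AC5 hearts (adjusted p = 3.26e-08, 2.12e-06 and 0.0251), the last lost on leaving out any 1 of 9 hearts. Fabp4, the fatty acid binding protein of adipocytes and endothelium, fell by -1.73 ± 0.29 in ARG and -1.72 ± 0.29 in GLY hearts (adjusted p = 1.88e-04 and 9.74e-04). Dgat2, which makes triglyceride, fell by -1.08 ± 0.11 in ARG hearts (adjusted p = 2.08e-07), and the peroxisomal thiolase and lipid carrier gene Scp2 by 50.1% in GLY hearts (adjusted p = 0.00438). The log2 change of Scp2 in GLY hearts was -1.17 without GLY replicate 6 and -0.83 without GLY replicate 3. It stayed called on leaving out any single heart. The calls of Scp2 and Fabp4 in GLY hearts were each lost under 1 of the other alternatives. Ehhadh, the peroxisomal bifunctional enzyme, was lower in ARG than in GLY hearts by -0.62 ± 0.10 (adjusted p = 0.00159), as were the fatty acid transporter Slc27a1 (-0.55 ± 0.12, adjusted p = 0.0173) and the lipid droplet protein Plin5 (-0.50 ± 0.10, adjusted p = 0.00921). In ARG against GLY hearts 4 of the 88 fell and 1 rose, beside 0.713 and 0.793 percent of all probe sets. The falls of Ehhadh, Slc27a1 and Plin5 all lost their call after quantile normalization and within replicates 4 to 6, Ehhadh also within replicates 1 to 3, Slc27a1 and Plin5 also without the 3 arrays of low weight, Plin5 with only the 2 genotypes, and Slc27a1 with a weight per genotype and without GLY replicate 1. Angptl4, an inhibitor of lipoprotein lipase, was the one that rose, both in ARG against NTG hearts (0.62 ± 0.20, adjusted p = 0.0407) and in ARG against GLY hearts (0.82 ± 0.20, adjusted p = 0.0289). These calls were lost on leaving out any 1 of 7 and of 6 hearts, and within replicates 1 to 3 the changes were 0.32 and 0.15 (adjusted p = 0.568 and 0.801).

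Nuclear receptors and cofactors that govern the pathway were read by 33 probe sets for 12 genes. In ARG against NTG hearts 2 of the 33 fell (6.06%) and 1 rose, shares near the 5.63 and 4.04 percent of all probe sets. Rxrg, a partner of PPAR-alpha, fell by -0.47 ± 0.09 (adjusted p = 9.39e-04), and Esrrb, an estrogen-related receptor, by -0.36 ± 0.10 (adjusted p = 0.0168), a call lost without NTG replicate 4 or ARG replicate 3. Nrip1, a corepressor, rose by 0.41 ± 0.13 (adjusted p = 0.0397), a call lost on leaving out any 1 of 10 hearts. Ppara itself changed by -0.15, -0.01 and -0.03 at its 3 probe sets in ARG hearts, and none was called. In GLY and AC5 against NTG hearts and in ARG against GLY hearts limma called 0 of the 33, with 7, 1 and 5 at an unadjusted p under 0.05.

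Markers of heart cell types were read from the same fits. Over all probe sets, 5.63 percent fell in ARG, 3.53 in GLY and 0.0733 in AC5 against NTG hearts, and 4.04 percent rose in ARG hearts. Of 25 probe sets for 12 cardiomyocyte genes, 4 fell in ARG, 1 in GLY and 0 in AC5 hearts, with median changes of -0.07, -0.10 and -0.07. The cardiomyocyte share in GLY hearts (4 percent) and the skeletal muscle share in ARG hearts (7.14 percent) were near those of all probe sets. Per heart the median of the cardiomyocyte markers lay at -0.15 to -0.04 in ARG, -0.22 to -0.01 in GLY and -0.16 to -0.02 in AC5 hearts, against -0.06 to 0.05 in NTG hearts. Macrophage markers rose in ARG hearts at 10 of 15 probe sets (median change 0.77), and their median per heart was 0.26 to 1.16 in ARG, -0.27 to 0.59 in GLY and -0.22 to 0.20 in AC5 hearts, against -0.15 to 0.11 in NTG hearts. Fibroblast markers rose in ARG hearts at 7 of 16 probe sets, 6 of them for collagens, and 0 were called by limma in GLY or AC5 hearts, with 4 and 3 at an unadjusted p under 0.05. In ARG hearts 3 of 15 endothelial probe sets, 3 of 9 adipocyte probe sets (Adipoq and Car3) and 1 of 14 skeletal muscle probe sets (Acta1, -2.47) fell. In GLY hearts 2 of the 15 endothelial probe sets and the same Acta1 probe set (-1.83) fell, and 0 of the 9 adipocyte probe sets were called by limma, with 1 at an unadjusted p under 0.05. Ratios do not show whether a marker is at 0, and the part of these cell types in the changes of the oxidation genes was not tested.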

How the data were processed

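Total RNA from 24 hearts was labelled and hybridised to Affymetrix arrays, per the labels' protocols. The deposited values are linear ratios to the NTG level, made by the authors with RMA (robust multi-array averaging), per the submitters' processing notes, with no version stated there. That the values are on a linear scale and were divided by an NTG level was read from the values, since no label states it. They carry no brightness, so probe sets near background could not be left out.

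The ratios were turned to log2 and fitted without further normalization with limma 3.58.1 (lmFit and eBayes, R 4.3.3), with 1 mean per genotype over all 24 arrays and 6 contrasts. P-values were adjusted by the Benjamini-Hochberg method over 45037 probe sets, after 64 control probe sets were left out, and called under 0.05. Intervals are 95% intervals of the fitted change. The labels call the 6 hearts of a genotype biological replicates. Tables were joined in Python 3.11.15 (numpy 2.4.6, pandas 2.3.3), plots drawn with matplotlib 3.10.9, and the fit was tested on simulated data.

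Gene symbols are those of RefSeq, found through the Entrez gene number of the platform annotation, for 18032 of the 18193 genes. The rest keep the symbol of that annotation. Promoters and gene positions are from RefSeq on GRCm38.p6 (27 member promoters matched). Members, gene lists, the split into replicates 1 to 3 and 4 to 6, and the 3 arrays of low weight were all chosen with earlier results of these data known. The 50 named changes were picked by rule in ARG, GLY and AC5 against NTG hearts and in ARG against GLY hearts. In each, they were the 8 called member probe sets with the largest fall and the 4 with the largest rise. The largest called change of each step and pairs of 1 gene called in opposite directions were added. So were the 3 largest called falls and rises of the other pathway genes and of the regulators. Statistics are also printed for changes outside these 50, among them those of Acadvl, Slc25a20, Etfb and Pdk4. The alternatives were quantile normalization, centring on array medians, the replicate number as a block, the replicate set as a term or fitted apart, fits of only the genotypes compared, a weight per genotype, omission of the 3 arrays of low weight, and omission of each array in turn.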

Additional observations from a re-analysis of the deposited data

Results flagged for a closer look

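Single hearts stood apart from the other 5 of their genotype in 11 of 96 groups tested, where the gap to the nearest heart passed Dixon's 95% critical value. Chance gives about 1 in 20. ARG replicate 4 was low at Eci1 (0.495, the others 0.647 to 0.693), at Ech1 (0.494, the others 0.663 to 0.733) and at 2 probe sets of Acaa2 (0.542, the others 0.694 to 0.752, and 0.523, the others 0.686 to 0.779). GLY replicate 3 was low at Fabp3 (0.754, the others 0.883 to 0.933) and at Hadhb (0.551, the others 0.652 to 0.711). AC5 replicate 3 was low at Fabp3 (0.841, the others 0.929 to 0.963), and GLY replicate 2 at Acad12 (0.412, the others 0.53 to 0.603). ARG replicate 2 was high at Lpl (0.893, the others 0.701 to 0.763), and ARG replicate 6 at 1 probe set of Hadh (0.737, the others 0.493 to 0.568). NTG replicate 4 was low at Etfdh (0.927, the others 0.991 to 1.01). All values are ratios to the NTG level.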

How the results depend on the processing

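Of 450 values of the 50 named changes under the alternatives that keep or drop sets of arrays or change the fit, 342 stayed on the same side of the threshold, 108 lost their call and 0 reversed. On leaving out single arrays, 503 of 600 kept their call, 97 lost it and 0 reversed. For the counts, the cause of each shift below was not tested, except that fits within a replicate set hold 3 hearts a genotype. Shares over all probe sets are not given for the alternatives, so these shifts cannot be told from general changes in the number of calls.

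In ARG against NTG hearts the 30 falls became 28 to 32 without single arrays (medians -0.52 to -0.45), and the 1 rise became 0 within replicates 4 to 6. In GLY against NTG hearts the 19 falls became 12 after quantile normalization, 12 and 0 within replicates 1 to 3 and 4 to 6, and 14 to 20 without single arrays. The 1 rise became 0 in those 3 fits and without the 3 arrays of low weight, and 0 to 1 without single arrays. In AC5 against NTG hearts the 2 falls became 11 after quantile normalization, 1 with centred arrays, 0 within either set, 11 with only the 2 genotypes, 12 with a weight per genotype, 7 without the 3 arrays and 0 to 3 without single arrays. The 0 rises became 1 under quantile normalization, the replicate block, the set term, only the 2 genotypes, weights and omission of the 3 arrays.

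In ARG against GLY hearts the 7 falls became 0 after quantile normalization, 11 with the set term, 3 and 0 within the sets, 0 with only the 2 genotypes, 3 with weights and 4 to 16 without single arrays. In ARG against AC5 hearts the 23 falls became 4 after quantile normalization, 2 and 12 within the sets and 20 to 24 without single arrays. The 2 rises became 1, 1 and 0 in those 3 fits and 1 to 2 without single arrays. In GLY against AC5 hearts the 1 rise became 0 within replicates 4 to 6, with only the 2 genotypes, with weights and, at the lowest, without single arrays, and the median of -0.10 became 0.01 within replicates 1 to 3.

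Replicate numbers were not taken as pairs in the main fit. Deviations of the 36 same-numbered pairs correlated at -0.289 to 0.492 (median 0.037, 16 over 0.1). The 180 other pairs had a median of 0.003, with 48 over 0.1. With the replicate block the AC5 against NTG count above was the only one that moved by over 1.5 times. Ratios without brightness leave signal over background unknown, 6 hearts a genotype limit the precision, and a shared spread understates the error of ARG and GLY hearts.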

Other observations

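Probe sets of 1 gene often differed in size. In ARG against NTG hearts 1 probe set of Fabp3, Acadl, Etfdh and Ucp3 fell while the other was not called, and at Hadhb probe sets fell and rose. The platform annotation gives no place of the probes within the transcript, and the reason was not tested.

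GLY replicates 1 and 3 were not low everywhere. Both were below the other 4 GLY hearts at 14 of 52 probe sets, with the widest gap at Cd36 (1.45 on the log2 scale between the means). At Acad12 their ratios were 0.53 and 0.538, inside the 0.412 to 0.603 of the other 4, and at Acads 0.769 and 0.775, inside 0.504 to 0.823. At Mlycd both were above the other 4 (1.22 and 1.21, the others 0.73 to 0.898). The same held at further probe sets, among them every one of Cpt1a, that of Etfb, a probe set of Slc25a20 and the first of Acaa2.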
